A study of Mus musculus with 16 samples.

Results

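Endothelial cells line the blood and lymph vessels of the testis, and their transcripts were followed here through 10 genes that are widely used as markers of this cell type: *Pecam1*, *Emcn*, *Tie1*, *Eng*, *Vwf*, *Erg*, *Esam*, *Egfl7*, *Plvap* and *Mmrn2*. The 10 genes were chosen by symbol, as known endothelial markers, and each matched a single gene among the 35983 genes of the deposited expression table. RNA had been sequenced from whole testes of mice of mixed 129Sv and C57Bl/6J background, in 4 groups of 4 samples. At postnatal day 1 (P1) the groups were *Lrh1* flox/-; *Nanos3-Cre* mutants, in which *Lrh1* (*Nr5a2*, the gene of an orphan nuclear receptor) is deleted in germ cells, and *Lrh1* flox/- controls without *Cre*, so that every P1 animal carried a null allele. At postnatal day 3 (P3) they were *Lrh1* flox/flox; *Dhh-Cre* mutants, in which the deletion acts in differentiating fetal Sertoli cells, and *Lrh1* flox/flox controls without *Cre*. The paper does not describe either *Cre* as active in endothelial cells and does not report on deletion there. The endothelium was not sorted.

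The values are mean FPKM (fragments counted on a gene, divided by its length and by the size of the library) of each group of 4 samples, as the authors averaged them. FPKM is a level per length of gene, so levels can be set beside each other between genes as well as between groups. Only these means were used, so none has an error, sequencing depth behind a mean is unknown, no test across samples could be made, and whether a difference exceeds the spread between replicates cannot be said. Mutant and control were compared by the log2 ratio of the means, after 0.1 FPKM was added to each, less the median ratio of all genes that averaged 0.5 FPKM or more across the pair of groups. A ratio of at least 1.5-fold in either direction was counted in place of a test. Over all genes that median ratio was 0.00 at P3 and 0.02 at P1, and the summed FPKM of a group ran from 323690 to 382861. *Nr5a2* itself had means of 0.609 FPKM in *Dhh-Cre* mutants and 1.15 FPKM in controls at P3, and of 0.491 FPKM in *Nanos3-Cre* mutants and 0.764 FPKM in controls at P1. Because RNA came from whole testes, fewer cells of a type and less RNA per cell cannot be told apart.

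Endothelial cells build a tube by joining to each other through junction proteins, keep their identity through transcription factors of the ETS family, and respond to ligands from the surrounding tissue through receptors such as those of the angiopoietin and TGF-beta families. In the testis the vessels run in the interstitium between the seminiferous tubules, beside Leydig cells, macrophages and fibroblasts, and do not enter the tubules that hold Sertoli and germ cells. Several of the markers are made by other cells as well: *Pecam1* by platelets and leukocytes, *Vwf* by megakaryocytes, and *Eng* by macrophages and stromal cells.

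ERG, the product of one of the 10 genes, belongs to the ETS family, which binds DNA around a GGAA core, so the bases just upstream of the marker genes were searched for it. RefSeq start sites on GRCm38.p6 were matched for 5 of the 10 genes, with 9 start sites in all. The 250 bases before the start are shown for *Emcn* and *Eng*, which had the largest and the smallest ratio of the 10 genes at P3, and for the most upstream start of *Erg* itself. They lie at chr3:137340828-137341077 on the plus strand, chr2:32646345-32646594 on the plus strand and chr16:95586594-95586843 on the minus strand. Capitals mark AGGAAG or CGGAAG, a longer form that contains the GGAA core, on either strand (CTTCCT or CTTCCG where it is on the opposite one).
Emcn: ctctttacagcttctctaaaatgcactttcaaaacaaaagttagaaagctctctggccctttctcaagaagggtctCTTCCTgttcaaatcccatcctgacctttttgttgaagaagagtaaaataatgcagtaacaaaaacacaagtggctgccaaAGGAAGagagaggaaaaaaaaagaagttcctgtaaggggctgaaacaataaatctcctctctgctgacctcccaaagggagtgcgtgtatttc
Eng: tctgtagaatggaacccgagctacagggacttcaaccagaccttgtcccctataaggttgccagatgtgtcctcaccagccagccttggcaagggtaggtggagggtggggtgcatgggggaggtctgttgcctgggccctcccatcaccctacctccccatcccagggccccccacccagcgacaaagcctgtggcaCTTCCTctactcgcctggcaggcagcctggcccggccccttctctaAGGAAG
Erg: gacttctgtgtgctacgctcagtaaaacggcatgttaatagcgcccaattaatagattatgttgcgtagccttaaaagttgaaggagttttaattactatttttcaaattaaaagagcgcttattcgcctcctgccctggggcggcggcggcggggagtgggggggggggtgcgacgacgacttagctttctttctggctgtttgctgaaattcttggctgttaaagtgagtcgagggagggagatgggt
*Emcn* and *Eng* each held 2 such matches and this start of *Erg* none. AGGAAG or CGGAAG was present in 6 of the 9 upstream windows of the marker genes, against 39.2% of 32851 windows of the same length over all genes. The 9 windows come from 5 genes, with several from *Egfl7* and several from *Erg*, so they are not independent, and the difference in share was not tested. The GGAA core alone was in 8 of the 9 windows and in 93.4% of all windows, so its presence singles out few genes. A match in these letters is a description of the window and was not tested for binding.

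All 10 endothelial markers had a higher mean in P3 *Dhh-Cre* mutant testes than in P3 controls. The difference was at least 1.5-fold for 7 of the 10, namely *Emcn*, *Esam*, *Tie1*, *Vwf*, *Pecam1*, *Mmrn2* and *Erg*, and none was lower. Of these, *Vwf* (0.694 FPKM in mutants and 0.372 FPKM in controls) passed the level filter through its higher mutant mean, so its place in the count is not independent of the difference. Over all 16923 genes measured at P3, 12.4% were higher by at least 1.5-fold and 8.36% were lower, and 50.2% had a higher mean in any amount. The median log2 ratio of the 10 markers was 0.71, a 1.64-fold higher mean. The sum of the 10 means was 56.4 FPKM in *Dhh-Cre* mutants and 38.8 FPKM in controls, a ratio of 1.45, and without *Eng* it was 40.7 FPKM and 24.8 FPKM, a ratio of 1.64.

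**Figure D1:**
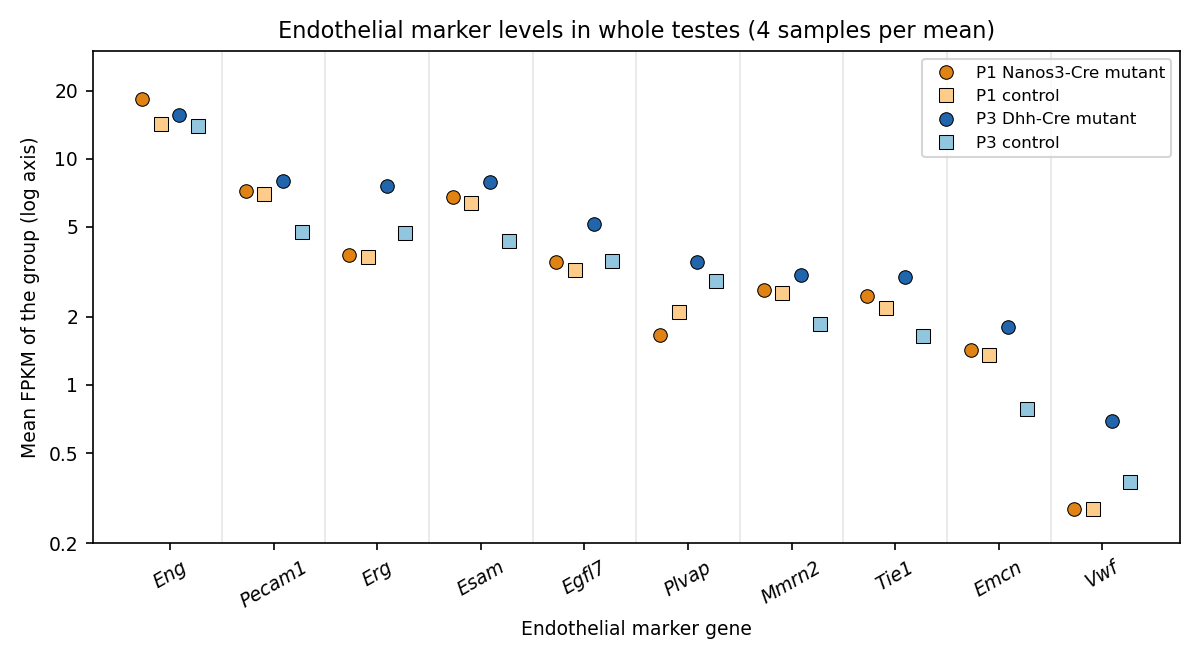
Mean FPKM (vertical log axis) of each endothelial marker gene in the 4 groups, each point the mean of 4 samples as deposited, without error bars because no values per sample were used. The P3 Dhh-Cre mutant mean was the highest of the 4 for 9 of the 10 genes, the exception being Eng, and the levels of the genes span from 0.284 FPKM for Vwf to 18.5 FPKM for Eng. How many of all genes had their highest mean in that group was not counted.

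Of the junction and surface proteins, *Pecam1* encodes an adhesion molecule of endothelial cell contacts (chromosome 11 of GRCm38, 106654217 to 106750628, minus strand). *Pecam1* averaged 7.98 FPKM in *Dhh-Cre* mutants and 4.75 FPKM in controls, a log2 ratio of 0.73. *Esam*, the gene of a tight junction adhesion molecule of endothelium (chromosome 9, 37528078 to 37538319, plus strand), averaged 7.92 FPKM in *Dhh-Cre* mutants and 4.33 FPKM in controls, a log2 ratio of 0.86. The level of *Esam* thus stayed close to that of *Pecam1* in each group, at 0.992 of it in *Dhh-Cre* mutants and 0.911 in P3 controls. *Emcn*, the gene of the sialomucin endomucin, which coats the lumen of capillaries and veins (chromosome 3, 137341067 to 137432185, plus strand), had the largest ratio of the 10. *Emcn* averaged 1.80 FPKM in *Dhh-Cre* mutants and 0.781 FPKM in controls, a log2 ratio of 1.11, and was the only one of the 10 past 2-fold, where 4.73% of all genes were. Its ratio was 0.42 above the median of the other members on the log2 scale.

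Of the receptors, *Tie1* encodes the receptor that partners TEK in angiopoietin signalling (chromosome 4, 118471191 to 118490061, minus strand). *Tie1* averaged 3.00 FPKM in *Dhh-Cre* mutants and 1.65 FPKM in controls, a log2 ratio of 0.82. *Eng* encodes endoglin, a coreceptor for ligands of the TGF-beta family such as BMP9 (chromosome 2, 32646595 to 32682669, plus strand), and its end overlaps *Fpgs* on the opposite strand. *Eng* had the highest mean of the 10 genes in every group and the smallest ratio at P3, with 15.6 FPKM in *Dhh-Cre* mutants and 13.9 FPKM in controls, a log2 ratio of 0.16. That is 0.57 below the median of the other members on the log2 scale, and *Eng* made up 27.7% of the summed marker FPKM in *Dhh-Cre* mutants and 36.0% in P3 controls. Among all genes the ratio of *Eng* lay at the 66.8th percentile and that of *Emcn* at the 96.5th.

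*Erg*, the transcription factor gene of the set, lies on chromosome 16 from 95359169 to 95586593 on the minus strand. *Erg* averaged 7.60 FPKM in *Dhh-Cre* mutants and 4.67 FPKM in controls, a log2 ratio of 0.69. *Fli1*, the gene of a closely related ETS factor that blood cells also express, averaged 4.67 FPKM in *Dhh-Cre* mutants and 3.02 FPKM in controls, a log2 ratio of 0.61. The *Erg* level was 1.63 times that of *Fli1* in *Dhh-Cre* mutants and 1.55 times in P3 controls.

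Of the secreted and matrix products, *Vwf* encodes von Willebrand factor, which binds platelets (chromosome 6, 125546774 to 125686679, plus strand). *Vwf* had the lowest level of the set, with 0.694 FPKM in *Dhh-Cre* mutants and 0.372 FPKM in controls, so that it passed the level filter at P3 through the higher mutant mean. Its log2 ratio was 0.75, and 0.30 with 1 FPKM added to each mean in place of 0.1. *Mmrn2*, the gene of an endothelial matrix glycoprotein that binds CLEC14A, CD93 and CD248 (chromosome 14, 34375465 to 34404287, plus strand), averaged 3.07 FPKM in *Dhh-Cre* mutants and 1.86 FPKM in controls, a log2 ratio of 0.69. With 1 FPKM added its log2 ratio was 0.51, below 1.5-fold. *Egfl7*, the gene of a secreted protein of the vessel wall that also hosts a microRNA gene (chromosome 2, 26580014 to 26593120, plus strand), averaged 5.16 FPKM in *Dhh-Cre* mutants and 3.52 FPKM in controls. Its log2 ratio of 0.54 was just short of 1.5-fold. Another gene model on the same strand, *Gm20532*, overlaps *Egfl7* in GENCODE M21, so reads of this region may be split between the models.

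*Plvap* encodes the protein of the diaphragms that span endothelial fenestrae and caveolae (chromosome 8, 71497765 to 71511752, minus strand) and overlaps *Gtpbp3* on the opposite strand. *Plvap* averaged 3.50 FPKM in *Dhh-Cre* mutants and 2.88 FPKM in controls, a log2 ratio of 0.27. Its level was 0.439 of that of *Pecam1* in *Dhh-Cre* mutants and 0.605 in P3 controls. Whether the smaller ratios of *Plvap* and *Eng* differ from those of the other markers could not be tested on means.

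**Figure D2:**
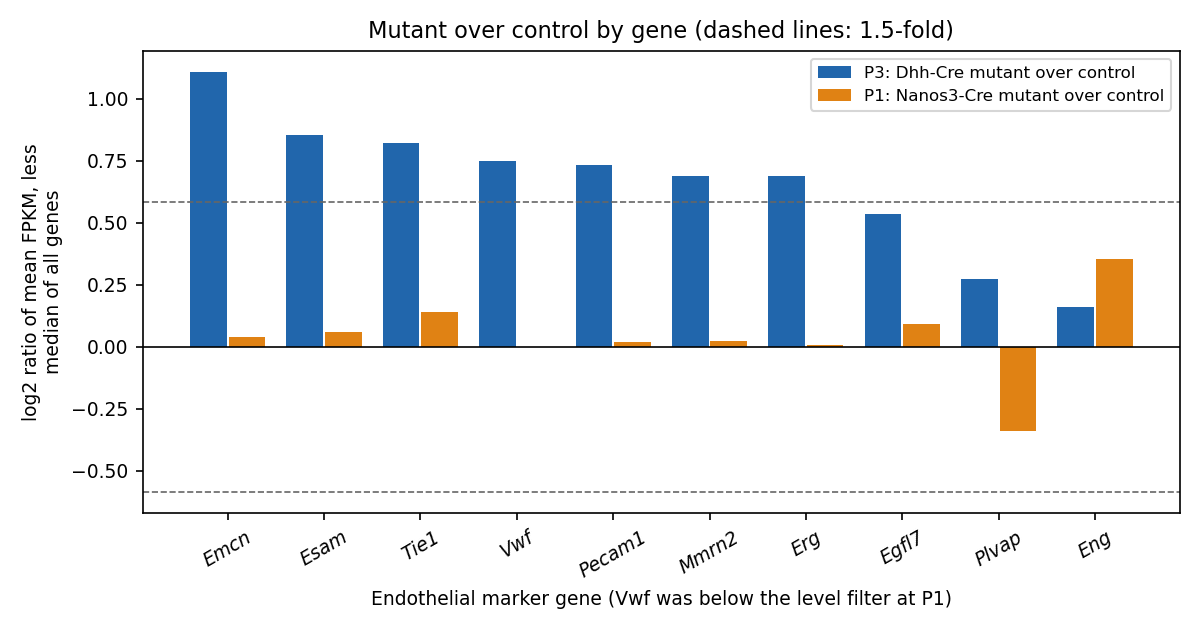
Log2 ratio of mean FPKM (vertical axis, mutant over control, less the median of all genes) for each endothelial marker gene at P3 (blue) and P1 (orange), with no error bars because each group is a single deposited mean. At P3 the bars run from 1.11 for Emcn to 0.16 for Eng and 7 pass the dashed line at 1.5-fold, and at P1 none does.

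At P1 the endothelial markers had nearly equal means in *Nanos3-Cre* mutants and controls. Of the 9 markers that passed the level filter, none differed by 1.5-fold in either direction, where 2.94% of 16121 genes were higher and 3.62% lower by that much. Of the 9, 7 lay within 1.2-fold, and the share of all genes that did so was not counted. The median log2 ratio of the 9 markers was 0.04. *Pecam1* averaged 7.20 FPKM in *Nanos3-Cre* mutants and 7.01 FPKM in controls, *Erg* 3.76 FPKM in mutants and 3.68 FPKM in controls, and *Mmrn2* 2.64 FPKM in mutants and 2.55 FPKM in controls. *Emcn* (1.42 FPKM in mutants and 1.36 FPKM in controls), *Esam* (6.75 FPKM in mutants and 6.38 FPKM in controls), *Egfl7* (3.48 FPKM in mutants and 3.22 FPKM in controls) and *Tie1* (2.46 FPKM in mutants and 2.19 FPKM in controls) had log2 ratios from 0.04 to 0.14. *Vwf*, listed at 0.284 FPKM in both groups, was below the filter.

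*Eng* and *Plvap*, the pair with the smallest ratios at P3, were the pair with the largest differences at P1, in opposite directions. *Eng* averaged 18.5 FPKM in *Nanos3-Cre* mutants and 14.2 FPKM in controls, a log2 ratio of 0.35. *Plvap* averaged 1.67 FPKM in *Nanos3-Cre* mutants and 2.10 FPKM in controls, a log2 ratio of -0.34. *Eng* alone accounted for 82.8% of the difference in summed marker FPKM at P1 (48.1 FPKM in *Nanos3-Cre* mutants and 43.0 FPKM in controls), against 9.55% of the difference at P3. Without *Eng* the P1 sums were 29.7 FPKM in mutants and 28.8 FPKM in controls, a ratio of 1.03. The effects at P1 and P3 were not tested against each other, and the 2 comparisons differ in age, in the *Cre* used and in the genotype of the controls.

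The order of the levels was nearly the same in all groups. *Eng*, *Pecam1* and *Vwf* ranked first, second and last of the 10 genes in each of the 4 groups, and *Egfl7* and *Emcn* ranked 5 and 9 in each. *Erg* ranked 4 in both P1 groups and in P3 *Dhh-Cre* mutants and 3 in P3 controls, where it stood next to *Esam* (4.67 and 4.33 FPKM). Whether neighbours in this order differ beyond the spread between samples is unknown.

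Levels relative to *Pecam1*, which need no scaling between groups, separated the P1 groups from the P3 groups more than mutant from control for some markers. *Pecam1* itself averaged 7.01 FPKM in P1 controls and 4.75 FPKM in P3 controls, so a change in a relative level can come from *Pecam1*. The *Erg* level was 0.951 of that of *Pecam1* in P3 *Dhh-Cre* mutants and 0.983 in P3 controls, and it was 0.522 in P1 *Nanos3-Cre* mutants and 0.525 in P1 controls. *Egfl7* stood at 0.647 in P3 *Dhh-Cre* mutants and 0.741 in P3 controls, and at 0.484 and 0.459 in P1 *Nanos3-Cre* mutants and P1 controls. *Mmrn2* varied little, from 0.364 in P1 controls to 0.392 in P3 controls. *Eng* moved with genotype at both ages, at 1.96 times the *Pecam1* level in P3 *Dhh-Cre* mutants against 2.93 times in P3 controls, and 2.56 times in P1 *Nanos3-Cre* mutants against 2.03 times in P1 controls.

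**Figure D3:**
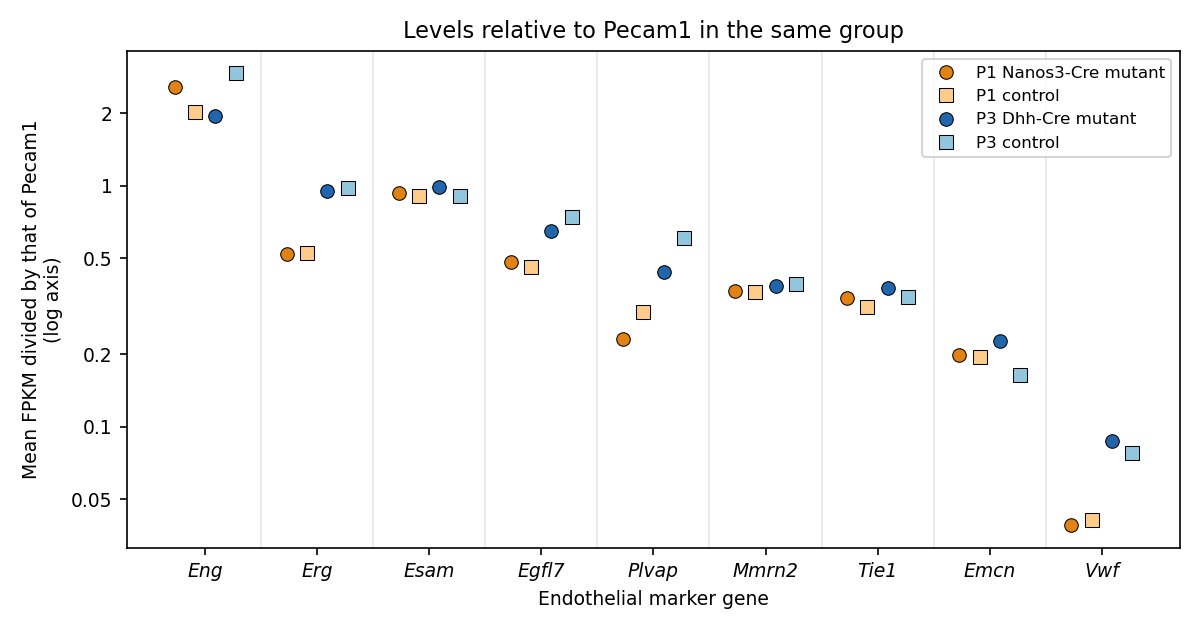
Mean FPKM of 9 endothelial marker genes divided by that of Pecam1 in the same group (vertical log axis), for the 4 groups, without error bars. Erg sits near 0.52 in both P1 groups and at 0.951 and 0.983 in P3 Dhh-Cre mutants and P3 controls, while Eng and Plvap differ between mutant and control at each age.

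Between the ages, controls at P3 had lower means than controls at P1 for part of the set. *Emcn* averaged 0.781 FPKM in P3 controls and 1.36 FPKM in P1 controls, *Pecam1* 4.75 FPKM in P3 controls and 7.01 FPKM in P1 controls, and *Esam* 4.33 FPKM in P3 controls and 6.38 FPKM in P1 controls. Their log2 ratios of -0.88, -0.70 and -0.70 passed 1.5-fold, which 14.5% of 16521 genes did in that direction (12.3% in the other, and no marker), after the median of all genes (0.15) was subtracted. *Erg* (0.19) and *Plvap* (0.29) had ratios above 0, and those of *Eng* (-0.17) and *Egfl7* (-0.02) changed sign when groups were scaled to equal sums of FPKM. With that scaling none of the 3 lower markers passed 1.5-fold. P3 controls were flox/flox and P1 controls flox/-, and RNA input differed (400 ng for all P3 samples, 500 ng for 3 of 4 in each P1 group), so age cannot be told apart from these. The P3 control means enter this comparison as well as that with the *Dhh-Cre* mutants, and they were the lowest of the 4 group means for 6 of the 10 markers. How many of all genes had their lowest mean in P3 controls was not counted.

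Other genes of endothelial cells, taken from a list of 28, mostly had higher means in *Dhh-Cre* mutants as well. Of the 28, 23 were higher and 5 lower, 10 were higher by at least 1.5-fold and 3 lower by as much, and the median log2 ratio was 0.51. Of all genes 12.4% were higher and 8.36% lower by that much, so the share of the list that was lower is near that of all genes. *Cdh5*, the gene of VE-cadherin, averaged 40.8 FPKM in *Dhh-Cre* mutants and 30.4 FPKM in controls, a log2 ratio of 0.42. *Cd34*, a sialomucin gene that stromal cells share, averaged 63.2 FPKM in *Dhh-Cre* mutants and 35.4 FPKM in controls, and *Myct1*, the largest ratio of the list at 1.06, 3.46 FPKM in mutants and 1.60 FPKM in controls. *Kdr*, the gene of the main VEGF receptor of endothelium, averaged 7.95 FPKM in *Dhh-Cre* mutants and 3.95 FPKM in controls. The 3 genes lower by that much were *Exoc3l2* (11.5 FPKM in *Dhh-Cre* mutants and 37.9 FPKM in controls), *S1pr1*, a receptor gene for sphingosine phosphate (15.4 FPKM in mutants and 28.4 FPKM in controls), and *Sox18*, a transcription factor gene (14.4 FPKM in mutants and 25.0 FPKM in controls). *Robo4* and *Tal1* were also lower, by less than 1.5-fold. *Kdr*, *S1pr1*, *Sox18*, *Robo4* and *Tal1* were singled out after their values were seen. At P1 none of the 28 differed by 1.5-fold, and the median log2 ratio was 0.00.

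Genes of proteins that bind a marker protein or act in the same pathway were taken from a list of 12. *Tek*, *Clec14a*, *Cd93* and *Fli1* are also in the list of 28 endothelial genes above. Of these 12 partner genes, 10 passed the level filter at P3, 4 were higher by at least 1.5-fold in *Dhh-Cre* mutants (*Angpt1*, *Cd248*, *Clec14a* and *Fli1*) and 1 was lower (*Cd177*), beside 12.4% and 8.36% of all genes in those directions. *Angpt1*, the ligand gene of TEK, had the largest ratio among those higher, with 5.11 FPKM in *Dhh-Cre* mutants and 1.47 FPKM in controls, a log2 ratio of 1.73. *Tek* averaged 2.85 FPKM in *Dhh-Cre* mutants and 1.87 FPKM in controls (log2 ratio 0.58), and *Angpt2* 1.91 FPKM in mutants and 1.39 FPKM in controls. *Acvrl1*, which encodes the receptor that acts with endoglin, averaged 17.5 FPKM in *Dhh-Cre* mutants and 25.6 FPKM in controls, a log2 ratio of -0.55, and *Bmpr2*, its type II partner, 14.2 FPKM in mutants and 15.9 FPKM in controls. Of the genes whose products bind MMRN2, *Cd248* averaged 93.9 FPKM in *Dhh-Cre* mutants and 58.6 FPKM in controls, *Clec14a* 5.03 FPKM in mutants and 3.24 FPKM in controls, and *Cd93* 14.8 FPKM in mutants and 12.3 FPKM in controls. *Cd177*, the gene of a neutrophil surface protein that binds PECAM1, averaged 0.182 FPKM in *Dhh-Cre* mutants and 1.08 FPKM in controls, and passed the filter through the higher control mean. *Gdf2*, the gene of BMP9, and *Adamts13*, the gene of the protease that cleaves von Willebrand factor, were under 0.1 FPKM in every group.

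Lists of endothelial subtypes gave the following counts and medians at P3, where 12.4% of all genes were higher by at least 1.5-fold. All 6 lymphatic endothelial genes above the filter were higher by at least 1.5-fold, with a median log2 ratio of 1.16, though *Prox1* (1.23 FPKM in *Dhh-Cre* mutants and 0.494 FPKM in controls) passed the filter through the higher mutant mean. *Lyve1*, the gene of a hyaluronan receptor also made by macrophages, averaged 11.6 FPKM in *Dhh-Cre* mutants and 4.84 FPKM in controls, *Ccl21a*, a chemokine gene, 37.9 FPKM in mutants and 16.9 FPKM in controls, and *Mmrn1* 5.34 FPKM in mutants and 2.06 FPKM in controls. *Pdpn*, the 7th gene of that list, was at or near 0 in every group. Of 7 arterial genes above the filter, 4 passed 1.5-fold (*Gja4*, *Efnb2*, *Hey1* and *Sox17*), with a median of 0.60. *Sox17* is also in the list of other endothelial genes above. The connexin gene *Gja4* averaged 7.77 FPKM in *Dhh-Cre* mutants and 4.17 FPKM in controls. The ephrin gene *Efnb2* averaged 8.93 FPKM in mutants and 5.84 FPKM in controls, and *Sox17* 1.96 FPKM in mutants and 1.10 FPKM in controls. Of 4 venous genes above the filter, *Aplnr* alone passed, with 8.80 FPKM in *Dhh-Cre* mutants and 5.61 FPKM in controls, and the median was 0.40. *Nr2f2* and *Ephb4* averaged 45.0 FPKM and 20.7 FPKM in mutants and 35.2 FPKM and 15.0 FPKM in controls. Mural genes of the vessel wall had a median of 0.49 over 9 genes, with *Rgs5* at 23.5 FPKM in *Dhh-Cre* mutants and 13.3 FPKM in controls, *Kcnj8* at 5.72 FPKM in mutants and 3.12 FPKM in controls and *Mcam* the other way, at 53.7 FPKM in mutants and 75.7 FPKM in controls. Their summed level was 121 FPKM in mutants and 123 FPKM in controls.

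Markers of the other cells of the testis moved at P3 as well, and their part in the endothelial values was not tested. In *Dhh-Cre* mutants 12 of 14 Sertoli cell genes were lower by at least 1.5-fold, where 8.36% of all genes were. The median log2 ratio of the 14 was -1.53, and their summed level was 588 FPKM in mutants and 1479 FPKM in controls. One of the 14, *Gata1*, passed the filter through the higher control mean (0.472 FPKM in mutants and 1.76 FPKM in controls). All 9 macrophage genes above the filter were higher, 7 by at least 1.5-fold, where 12.4% of all genes were. Their median was 0.98, with summed levels of 125 FPKM in mutants and 60.0 FPKM in controls. *Fcgr1*, whose ratio is that median, passed the filter through the higher mutant mean (0.794 FPKM in mutants and 0.352 FPKM in controls). The medians were 1.19 for 8 genes of interstitial mesenchyme, 1.28 for 7 of mesothelium, 0.57 for 6 of Leydig cells, 0.36 for 7 of peritubular myoid cells and -0.17 for 10 of germ cells. The endothelial markers, at 0.71, and the 28 other endothelial genes, at 0.51, lay on either side of the Leydig cell median, so the place of endothelium in this order depends on the list taken.

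Of the blood cells that share some of the markers, platelets had most of their genes at low levels and leukocytes did not. Of 8 megakaryocyte and platelet genes, 6 were below the level filter at P3, and *Gp1bb*, *Gp9*, *Gp6*, *Ppbp* and *Treml1* were each under 0.1 FPKM in both P3 groups. *Itga2b* averaged 0.571 FPKM in *Dhh-Cre* mutants and 0.437 FPKM in controls, and *Pf4*, which macrophages also express, 17.6 FPKM in mutants and 10.5 FPKM in controls. Leukocyte genes had levels in the range of the markers, except for *Ptprc*, which was below every marker at P3. *Ptprc* averaged 0.234 FPKM in *Dhh-Cre* mutants and 0.147 FPKM in controls, and *Cd48* 0.743 FPKM in mutants and 0.554 FPKM in controls. Of the 6 leukocyte genes the 5 above the filter had a median log2 ratio of 0.53. *Laptm5* averaged 5.47 FPKM in mutants and 2.88 FPKM in controls, and *Cd53* 3.63 FPKM in mutants and 2.43 FPKM in controls. *Coro1a* averaged 5.70 FPKM in mutants and 5.63 FPKM in controls. Levels of the list summed to 18.2 FPKM in *Dhh-Cre* mutants and 13.3 FPKM in controls. Neutrophil genes (4 above the filter, median -3.41) and red cell genes (6 above the filter, median -1.55) were lower in *Dhh-Cre* mutants, several of them having passed the filter only through the control mean. Neutrophil levels summed to 5.69 FPKM in *Dhh-Cre* mutants and 70.8 FPKM in controls, and red cell levels to 211 FPKM in mutants and 296 FPKM in controls. The part of these cells in the values of the markers they share was not tested.

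At P1 the lists with genes past 1.5-fold in *Nanos3-Cre* mutants were those of germ cells (7 of 9 genes lower and 1 higher, median log2 ratio -0.92), peritubular myoid cells (2 of 7 lower, median -0.49), red cells (2 of 5 higher, both of which passed the filter through the mutant mean, median -0.35), neutrophils (4 of 4 higher, median 1.93) and macrophages (4 of 9 higher, median 0.58). Of all genes at P1, 2.94% were higher and 3.62% lower by at least 1.5-fold. In their own test across replicates at P1, the authors reported only *Slc25a42*, *Chodl*, *Cbln1* and *Nxf2* as significantly misexpressed. None of these genes is in the lists used here. Macrophage levels summed to 93.4 FPKM in *Nanos3-Cre* mutants and 62.7 FPKM in controls, beside the higher *Eng* mean in the same testes. At P3 they summed to 125 FPKM in *Dhh-Cre* mutants and 60.0 FPKM in controls, beside an *Eng* log2 ratio of 0.16, the smallest of the markers. Whether macrophages took part in the *Eng* values at either age was not tested.

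**Figure D4:**
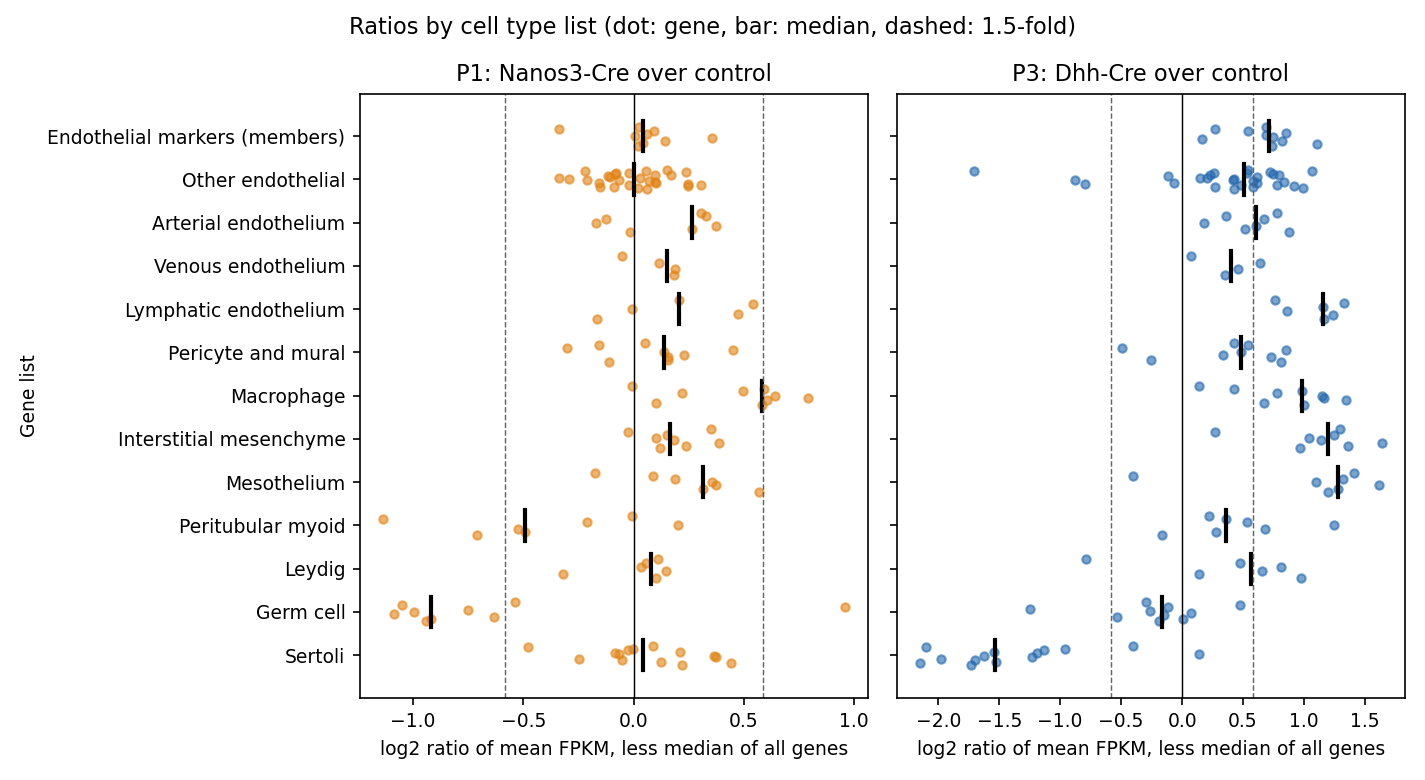
Log2 ratio of mean FPKM (horizontal axis, mutant over control, less the median of all genes) for genes of 13 lists at P1 (left) and P3 (right), each dot a gene and each bar the median of a list. At P3 the median is 0.71 for the endothelial markers and 0.51 for the 28 other endothelial genes, and at P1 it is 0.04 and 0.00.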

How the data were processed

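Whole testes were sequenced as stranded mRNA libraries, 4 samples in each of 4 groups, which were taken from the sample labels. The authors trimmed reads with Trim Galore 0.6.0 and cutadapt 1.18, mapped them with STAR 2.7.2a to GRCm38 (mm10) and estimated strand-specific expression on GENCODE M25. The authors deposited group means of FPKM for 35983 genes, and the definition of the library total was not given in the sources used here. At P1, 1 sample of each group had 400 ng of RNA input and the other 3 had 500 ng. Tables of called genes (log2 fold changes, adjusted p-values, mean counts) hold the authors' own comparison and were not used. A test with limma had been planned for values per sample and was not run.

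Log2 ratios were taken with 0.1 FPKM added, for genes that averaged 0.5 FPKM or more across the pair of groups, and the median of all genes kept was subtracted. The 10 marker genes and the 17 other lists were chosen with earlier results of these data known, and 1 gene of the platelet list is not reported here. Named genes were all markers, all partner genes with a detectable level, and in the other lists the 2 with the highest mean and the 2 with the largest P3 ratio. Lists of cells other than vessels, platelets and leukocytes are summarised by counts, medians and sums only. *Ptprc*, *Cd48*, *Fcgr1* and *Gata1* were named in addition for their low levels. The alternatives were other pseudocounts, filters, scalings and folds. Gene positions are from GENCODE M21 on GRCm38 and upstream sequences from RefSeq on GRCm38.p6. The analysis used Python 3.11.15 with pandas 2.3.3, numpy 2.4.6 and matplotlib 3.10.9, and its steps were tested on simulated data.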

Additional observations from a re-analysis of the deposited data

How the results depend on the processing

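All 10 endothelial markers kept a higher mean in P3 *Dhh-Cre* mutants under the 7 alternatives of pseudocount, filter and scaling, where they passed the filter. Most of these alternatives could hardly have reversed a direction. An added pseudocount cannot change which of a pair of means is larger, and the filters change only the genes kept and the median subtracted. With groups scaled to equal sums of FPKM the smallest log2 ratio, that of *Eng*, was 0.11. The P3 median log2 ratio of 0.71 became 0.55 with 1 FPKM added and stayed within 0.1 of the main value under the others. The count of 7 markers past 1.5-fold was 5 with 1 FPKM added and 5 of 8 at a minimum of 2 FPKM, and at 2-fold it was 1. At P1 no alternative of pseudocount, filter or scaling brought a marker past 1.5-fold, and at the lowest fold tried 1 marker was higher (*Eng*) and 1 lower (*Plvap*). The ratio of P3 over P1 controls depended on the processing. Its median of -0.54 was -0.38 with 1 FPKM added, -0.31 without a filter, -0.16 at a minimum of 2 FPKM, -0.39 without subtraction of the median of all genes, -0.16 with groups scaled to equal sums of FPKM and -0.27 when mitochondrial genes were left out of those sums, a scaling chosen after seeing the data. The cause of these shifts was not tested beyond the change in genes kept and in scaling. With no replicate spread to judge by, a shift of 0.1 in log2 was taken as a move. No paired analysis was possible because the deposited columns are group means without replicate numbers, and for the same reason no sample could be left out.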

Other observations

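The average profile of the markers over the 4 group means was compared with those of 8302 genes that averaged 5 FPKM or more. The markers and the list of 28 other endothelial genes were left out of the search, while genes found only in the endothelial subtype lists were kept. The nearest genes were *Sult1a1*, *Id3*, *Plag1*, *Mst1r* and *Fstl1*. Likeness was the Euclidean distance between the 4 means after each gene was divided by its own average, and it ran from 0.0197 to 0.0409 for these 5. *Id3*, the gene of an inhibitor of helix-loop-helix factors, averaged 44.7 FPKM in P3 *Dhh-Cre* mutants and 28.0 FPKM in P3 controls, and 32.9 FPKM in P1 *Nanos3-Cre* mutants and 30.4 FPKM in P1 controls. *Fstl1*, the gene of a secreted glycoprotein of mesenchyme, averaged 346 FPKM in P3 *Dhh-Cre* mutants and 207 FPKM in P3 controls. With only 4 means the measure separates genes poorly. The nearest marker, *Egfl7*, lay at 0.124, and 85 of the 8302 genes searched lay nearer than that.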
